A study of Mus musculus with 12 samples.

Results

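Small nucleolar RNAs (snoRNAs) guide chemical changes of ribosomal RNA, and most of them are cut from introns of longer host genes. In a small class of hosts the spliced exons encode no conserved protein. The 8 noncoding hosts Gas5, Snhg1, Snhg3, Snhg5, Snhg6, Snhg8, Snhg12 and Zfas1 are described here. They are 8 of the 23479 genes in the normalized read count table. They were chosen by name, as hosts whose transcripts begin like those of ribosomal protein genes. The table holds Zfas1 under its older symbol, 1500012F01Rik, and the other 7 under their own names. All 8 passed the filter on low values, a normalized count of at least 10 in at least 3 libraries, as did 13111 genes in all.

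Host transcripts of this class carry a terminal oligopyrimidine (TOP) start, a cytosine followed by a run of pyrimidines, which ties translation of ribosomal protein and translation factor mRNAs to the kinase mTORC1. Their exons hold only short reading frames with early stop codons, so that ribosomes which engage them expose the spliced RNA to nonsense-mediated decay. When translation is blocked or TOP RNAs leave polysomes, such host RNAs are known to become more stable, a property well known for Gas5 in growth-arrested cells.

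RNA was sequenced from a cultured B-cell lymphoma of a C57BL/6 mouse that carried the Eµ-Myc and Eµ-rtTA transgenes, both under an enhancer of the immunoglobulin heavy chain gene. The lymphoma received either a puromycin retrovirus with TFEB fused to ERT2, a tamoxifen-responsive estrogen receptor domain, or the empty puromycin virus. This TFEB, a transcription factor of lysosome genes, has alanine in place of the serine through which mTORC1 holds it in the cytoplasm. The 4 groups, each of 3 libraries, were TFEB cells in 4-hydroxytamoxifen (4-OHT), TFEB cells in vehicle, vector cells in 4-OHT and vector cells in vehicle. All groups carried Myc, rtTA and a puromycin virus and grew in medium with interleukin-7, and all came from 1 lymphoma. 4-OHT was given for 4 days, at 250 nM by the labels' protocol and at the same figure in ng/mL by the design text, so which dose was used is unclear. Nothing in the labels tells if the libraries of a group came from separate cultures, and p-values therefore speak only for the spread among these 12 libraries. The labels give lymph node as the source.

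The libraries held 11849029 to 22109283 reads, and a host gene had 160 to 8619 reads in a library, so none was near the limit of detection. The number of genes with any read, 11390 to 19250, varied within every group. Rn45s, the ribosomal RNA precursor, took 4.37 ± 0.21% of reads in TFEB cells in 4-OHT and 5.67 ± 0.95% in TFEB cells in vehicle, and 5.35 ± 0.51% in vector cells in 4-OHT and 6.31 ± 0.73% in vector cells in vehicle (SD, n = 3 each). The Tfeb row, which cannot separate gene from transgene, fitted the labels. It averaged 664.5 ± 72.6 normalized counts in TFEB cells in 4-OHT and 1676 ± 249 in TFEB cells in vehicle, against 221 ± 23.4 in vector cells in 4-OHT and 243 ± 17.7 in vector cells in vehicle. Of 8 B cell markers, 7 fell and 1 rose with 4-OHT in TFEB cells (limma, adjusted p under 0.05), and their summed level was 24640 to 26840 in TFEB cells in 4-OHT and 47140 to 54870 in the other 9 libraries. The 4 largest falls were Rag1 (log2 change -3.76), Vpreb1 (-1.54), Ebf1 (-1.52) and Igll1 (-1.51). The globin genes Hbb-bs, Hbb-bt and Hba-a1 were at 0 in every library. Summed T cell markers were 6.44 to 57.0 and summed myeloid markers 9.30 to 157.5 over the 12 libraries. Myeloid sums were 37.8 to 157.5 in TFEB cells in 4-OHT and 28.8 to 76.0 in TFEB cells in vehicle. They were 9.30 to 70.0 in vector cells in 4-OHT and 10.2 to 29.5 in vector cells in vehicle. Stromal and endothelial markers summed to 672 to 908, most of it Pecam1, at 684 ± 59.7 in TFEB cells in 4-OHT and 805 ± 78.5 in TFEB cells in vehicle. Of these 3 lists, 2, 3 and 3 genes were tested and limma called none with 4-OHT in TFEB cells, as did edgeR and DESeq2. At an unadjusted p under 0.05 limma had 1 T cell gene, and edgeR and DESeq2 1 stromal gene each. In 4-OHT limma called 1 myeloid gene higher in TFEB than in vector cells, beside 13.6% of tested genes. It called Pecam1 lower there (adjusted p = 0.0483), beside 13.5%. In that comparison edgeR and DESeq2 each called 1 stromal gene lower and no myeloid gene. Whether the shift in B cell genes has a part in the values below was not tested. In bulk RNA, fewer cells that express a gene and less of its RNA per cell cannot be told apart.

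The start of the transcript is shown for the hosts because the oligopyrimidine run lies there. Each line has 15 bases before and 15 bases from the annotated first base, from RefSeq on GRCm38.p6, read along the gene's strand. Capitals mark a run of at least 5 pyrimidines that opens with C and starts within 5 bases of the annotated start. Gas5 has 2 annotated starts, and Snhg6 is named only.
Gas5, upstream start, chr1:161034586-161034615, plus strand: agggggcgggcccgcgagctcgacagcccg
Gas5, downstream start, chr1:161035151-161035180, plus strand: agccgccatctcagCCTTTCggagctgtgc
Snhg1, chr19:8723472-8723501, plus strand: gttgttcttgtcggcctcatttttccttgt
Snhg3, chr4:132353672-132353701, minus strand: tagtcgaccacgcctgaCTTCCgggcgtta
Snhg5, chr9:88522883-88522912, minus strand: gagctgcggtgaaccgggctcgttctttta
Snhg8, chr3:123508322-123508351, minus strand: gcaccgttcagaagtCTCTTTggctgcgat
Snhg12, chr4:132308663-132308692, plus strand: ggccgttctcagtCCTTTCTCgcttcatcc
Zfas1, chr2:167062919-167062948, plus strand: ttgactgcgccccgggcggccgcaggtctc

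Such a run stood in 4 of the 8 windows, those of Gas5 (downstream start), Snhg3, Snhg8 and Snhg12, against 18.3% of the 32851 start windows of all genes. In Snhg8 the run began at the annotated first base, which was so in 2.51% of all windows. Annotated starts can be off by some bases, and a run in the sequence does not show that transcripts begin there. The palindrome CACGTG, the core that TFEB and MYC bind, was searched on both strands in the 300 bases around each start. It was in none of the 8 windows and in 7.15% of all. The longer palindrome TCACGTGA, which contains the shorter one and is typical of lysosome genes, was in none of the 8 and in 0.974% of all. These counts say only that the letters are not in these windows.

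RefSeq places 29 snoRNA genes inside the 8 hosts, and 9 of them have a row of their own in the table. Gas5 holds 8 snoRNA genes, Snhg1 also 8, Snhg12 holds 4, Zfas1 3, Snhg3 and Snhg5 2 each, and Snhg6 and Snhg8 1 each. The most abundant snoRNA row of each of 4 hosts is printed below, from GENCODE vM21 on GRCm38. Box C/D snoRNAs guide 2′-O-methylation and box H/ACA snoRNAs guide pseudouridylation. In the box C/D snoRNAs capitals mark the box C core TGATGA and the last CTGA, the box D. In Snora61 they mark the ACA near the 3′ end.
Snord47, in Gas5, chr1:161038082-161038158, plus strand: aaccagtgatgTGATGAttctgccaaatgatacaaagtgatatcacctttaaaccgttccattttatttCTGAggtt
Snord22, in Snhg1, chr19:8725866-8725991, plus strand: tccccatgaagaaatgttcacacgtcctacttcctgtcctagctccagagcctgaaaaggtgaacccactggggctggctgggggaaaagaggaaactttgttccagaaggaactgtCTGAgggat
Snord12, in Zfas1, chr2:167065276-167065365, plus strand: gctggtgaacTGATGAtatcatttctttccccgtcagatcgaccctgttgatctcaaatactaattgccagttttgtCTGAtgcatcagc
Snora61, in Snhg12, chr4:132310240-132310369, plus strand: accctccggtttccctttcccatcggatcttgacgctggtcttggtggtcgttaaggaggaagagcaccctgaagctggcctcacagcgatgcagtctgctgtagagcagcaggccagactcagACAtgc

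The exact core TGATGA was in 74 of the 98 Snord transcripts of that annotation, which is 75.5%, and CTGA was in all 98. An ACA ending 3 bases before the 3′ end was in 35 of 42 Snora transcripts, 83.3%. Snord22, the longest of the 3 box C/D sequences shown, lacked the exact core.

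Levels can be compared between hosts only per length of transcript. Per kilobase of the median annotated transcript, and averaged over the 12 libraries, the order was Gas5 with 12750 normalized counts, Snhg1 with 3605, Snhg8 with 1519, Snhg3 with 1405, Snhg6 with 1349, Snhg5 with 1288, Zfas1 with 1095 and Snhg12 with 347. The ranges over libraries of Snhg8, Snhg3, Snhg6, Snhg5 and Zfas1 overlapped one another, so their order is not fixed. Gas5, at 11110 or more, stood above the highest value of every other host, Snhg1 came next with no overlap on either side, and Snhg12, at 450 or less, stood below the lowest. The highest library was 1.39 times the lowest for Snhg1 and 1.42 times for Gas5, and 2.48 times for Snhg3.

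**Figure D1:**
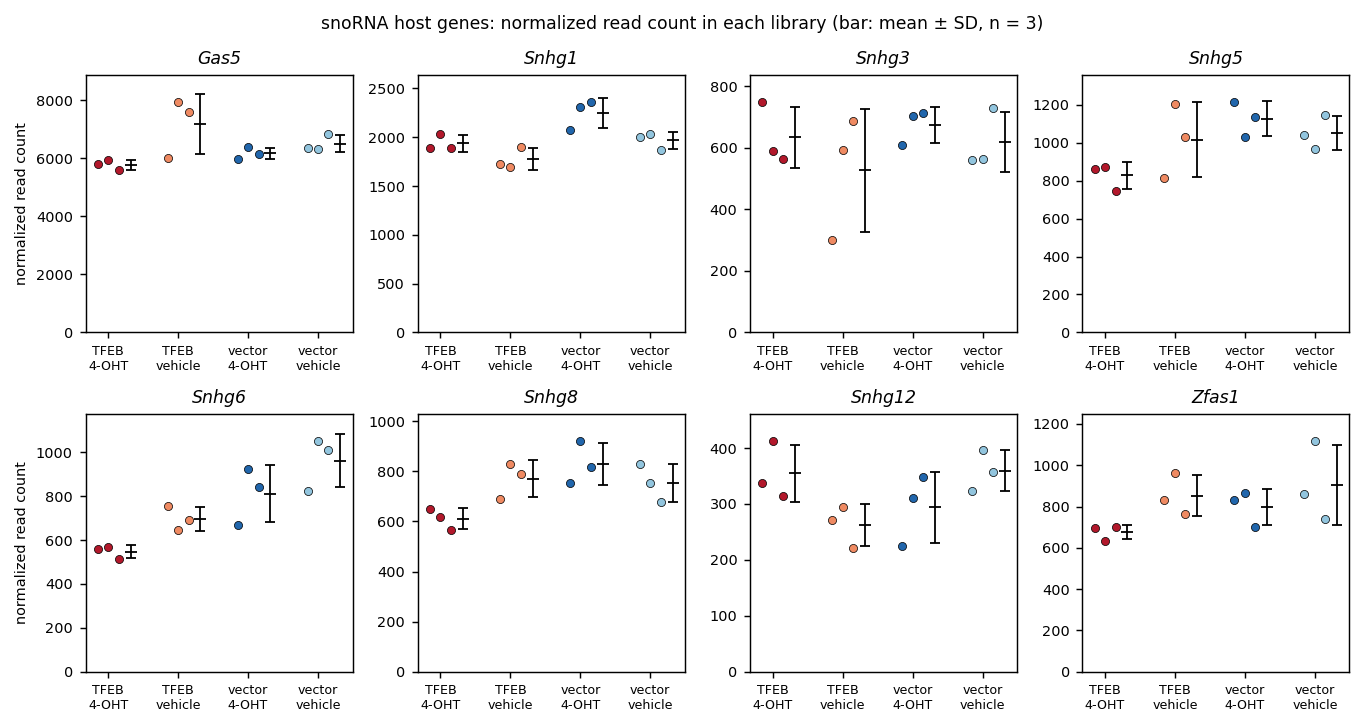
Normalized read count (vertical axes, each from 0) of the 8 host genes in the 12 libraries, by group. Points are libraries, and the black bar beside them is the mean with 1 SD (n = 3); Gas5, Snhg6, Snhg8 and Zfas1 lie lower in all 3 TFEB libraries in 4-OHT than in the 3 TFEB libraries in vehicle.

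The first comparison asks what 4-OHT, and with it activation of the fusion, did to the hosts in TFEB cells. 2 of the 8 hosts fell, Gas5 and Snhg8, and none rose (limma, adjusted p under 0.05 over all tested genes). That is 25.0% of the hosts, beside 27.5% of the 13111 tested genes called (13.9% lower and 13.7% higher), so the share called is near that of genes at large. At an unadjusted p under 0.05 there were 6 hosts, beside 36.0% of tested genes. edgeR called 3 hosts, beside 25.9% of tested genes, and DESeq2 called 4, beside 31.7%. Log2 changes were below 0 in 5 hosts and above 0 in 3, beside 6190 of the 13111 tested genes below 0. The median log2 change of the hosts was -0.29, against 0.04 over all tested genes. In 4 hosts all 3 libraries in 4-OHT lay below all 3 in vehicle, which was so for 18.4% of tested genes, and in 1 they lay above, as for 19.6%. Summed over the 8 hosts, TFEB cells in 4-OHT had 11360 ± 428 normalized counts and TFEB cells in vehicle 13070 ± 1483, against 12950 ± 544 in vector cells in 4-OHT and 13120 ± 286 in vector cells in vehicle.

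Gas5, named for its rise in growth arrest and host of box C/D snoRNAs, was the most abundant. It had 5794, 5932 and 5575 normalized counts in TFEB cells in 4-OHT, against 5994, 7929 and 7590 in TFEB cells in vehicle. Vector cells had 5981, 6372 and 6138 in 4-OHT, against 6356, 6313 and 6824 in vehicle. The 3 TFEB libraries in 4-OHT were the lowest of all 12, but the margin to the lowest TFEB library in vehicle was small, and the other 2 vehicle libraries were the highest of the 12. Gas5 fell by 0.30 ± 0.09 on the log2 scale in TFEB cells (SE, limma adjusted p = 0.00825), a 1.23-fold lower level. Without the second TFEB library in vehicle the change was -0.23 and the adjusted p 0.0668. In vector cells the change was -0.08 with a 95% interval of -0.25 to 0.10 (limma adjusted p = 0.948). The difference between the 2 responses, -0.23, was not past the threshold (limma adjusted p = 0.254). It passed without the first TFEB library in vehicle (-0.35, limma adjusted p = 0.0307).

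Snhg1, which carries Snord22 and 7 other snoRNA genes, did not share the direction of Gas5. TFEB cells had 1885, 2038 and 1889 normalized counts in 4-OHT, against 1728, 1692 and 1903 in vehicle. Vector cells had 2078, 2312 and 2360 in 4-OHT, against 2005, 2034 and 1870 in vehicle. In vector cells the 4-OHT libraries all lay above the vehicle libraries, and in TFEB cells the groups overlapped. The log2 change with 4-OHT was 0.13 ± 0.09 in TFEB cells (limma adjusted p = 0.341) and 0.19 ± 0.09 in vector cells (limma adjusted p = 0.778), and neither passed. The difference was -0.06, with a 95% interval of -0.32 to 0.20.

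Snhg5, whose introns hold a pair of box C/D snoRNAs, had 863, 873 and 747 normalized counts in TFEB cells in 4-OHT, against 813, 1207 and 1028 in TFEB cells in vehicle. In vector cells it had 1214, 1029 and 1138 in 4-OHT, against 1041, 969.5 and 1145 in vehicle. The first TFEB library in vehicle lay among the 4-OHT libraries, so the TFEB groups overlapped, while all 3 TFEB libraries in 4-OHT lay below every vector library. With 4-OHT in TFEB cells the log2 change was -0.28 ± 0.13 (limma adjusted p = 0.101), not past the threshold. Without that vehicle library it was -0.43 and passed (limma adjusted p = 0.0115), as did the difference between the 2 lines (-0.53, limma adjusted p = 0.0319, against -0.38 and 0.168 with all libraries).

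Snhg6, the host of Snord87, separated by line in both media, and by treatment in TFEB cells. TFEB cells had 560, 569 and 513 normalized counts in 4-OHT, against 755, 645 and 693 in vehicle. Vector cells had 668, 923 and 843 in 4-OHT, against 824, 1050 and 1009 in vehicle. The TFEB groups did not overlap each other, and in each medium TFEB and vector cells did not overlap. The vector groups overlapped each other. By mean, TFEB cells in 4-OHT were lowest and vector cells in vehicle highest. With 4-OHT the log2 change was -0.35 ± 0.13 in TFEB cells (limma adjusted p = 0.051) and -0.25 ± 0.13 in vector cells (limma adjusted p = 0.812), and neither passed. edgeR and DESeq2 on whole reads called the change in TFEB cells (adjusted p 0.0371 and 0.0245), as did limma without the second TFEB library in vehicle (0.0406) or without any 1 of the 3 vector libraries in 4-OHT (0.0379, 0.047 and 0.0495). The difference of the responses was -0.10, with a 95% interval of -0.48 to 0.29.

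Zfas1, named for its antisense position at the 5′ end of Znfx1, hosts box C/D snoRNAs of the Snord12 family. TFEB cells had 694, 635 and 700 normalized counts in 4-OHT, against 831, 964 and 764 in vehicle. Vector cells had 833, 864 and 698 in 4-OHT, against 859, 1115 and 739 in vehicle. The TFEB libraries in 4-OHT lay below those in vehicle, and the vector groups overlapped. The log2 change was -0.33 ± 0.14 in TFEB cells (limma adjusted p = 0.0748) and -0.16 ± 0.14 in vector cells (limma adjusted p = 0.924), and neither passed. Without the third TFEB library in vehicle the change in TFEB cells was -0.40 and passed (limma adjusted p = 0.0445). DESeq2 with all libraries also called it (-0.33, adjusted p = 0.0468).

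Snhg8 and Snhg3 host only box H/ACA snoRNAs. Snhg8, which holds Snora24, had 648, 620 and 565 normalized counts in TFEB cells in 4-OHT, against 689, 831 and 791 in TFEB cells in vehicle. In vector cells it had 753, 919 and 816 in 4-OHT, against 831, 755 and 679 in vehicle. The TFEB libraries in 4-OHT lay below the other 9 libraries. Snhg8 fell by 0.33 ± 0.13 on the log2 scale with 4-OHT in TFEB cells (limma adjusted p = 0.0487), close to the threshold, and the call was kept in 12 of 24 alternative analyses. It was lost without any 1 of the 3 TFEB libraries in 4-OHT (limma adjusted p 0.0555, 0.0835 and 0.185), without the second or the third TFEB library in vehicle (0.161 and 0.10), and without the first or the second vector library in vehicle (0.0551 and 0.0611). In vector cells the change was 0.13 ± 0.13 (limma adjusted p = 0.938), and the difference between the lines, -0.47 ± 0.18, was not past the threshold (limma adjusted p = 0.0758). DESeq2 called this difference (adjusted p = 0.0268), and limma called it without the first TFEB library in vehicle (adjusted p = 0.045).

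Snhg3 had 749, 590 and 564 normalized counts in TFEB cells in 4-OHT, against 302, 593 and 687 in TFEB cells in vehicle. In vector cells it had 609, 702 and 715 in 4-OHT, against 560, 564 and 732 in vehicle. The groups overlapped in both lines, and the first TFEB library in vehicle, the lowest of the 12, stood apart from the others. The log2 change in TFEB cells was 0.34 ± 0.19 (limma adjusted p = 0.223) with all libraries and -0.02 without that library. Without the third TFEB library in vehicle it was 0.57 and passed (limma adjusted p = 0.0343). In vector cells it was 0.13 ± 0.19 (limma adjusted p = 0.952).

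Snhg12, the host of 3 box H/ACA snoRNAs and Snord99, was the one member whose TFEB libraries in 4-OHT all lay above those in vehicle. TFEB cells had 338, 412 and 314 normalized counts in 4-OHT, against 271, 295 and 221 in vehicle. Vector cells had 224, 311 and 347 in 4-OHT, against 324, 397 and 357 in vehicle. The means of the 2 lines moved in opposite directions, and the vector groups overlapped. The log2 change was 0.44 ± 0.20 in TFEB cells (limma adjusted p = 0.103) and -0.31 ± 0.20 in vector cells (limma adjusted p = 0.882). The difference of 0.74 ± 0.28 was the largest among the 8 hosts but missed the threshold (limma adjusted p = 0.0686), while DESeq2 called it (adjusted p = 0.0281). limma called it without the second TFEB library in vehicle (adjusted p = 0.0473) or the third vector library in 4-OHT (adjusted p = 0.0333).

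**Figure D2:**
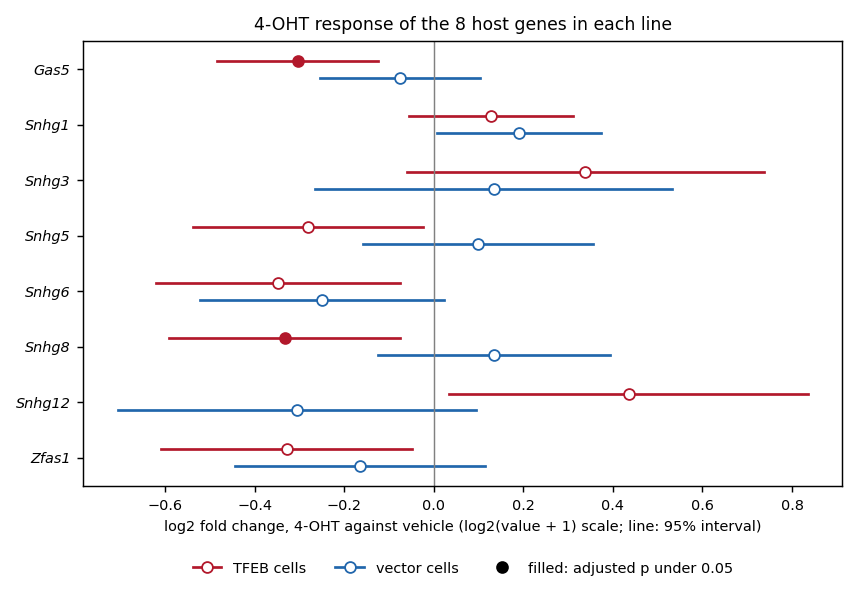
Log2 fold change of 4-OHT against vehicle (horizontal axis) with its 95% interval for each host, in TFEB cells (red, upper) and vector cells (blue, lower), from limma over 3 libraries per group. Filled circles, Gas5 and Snhg8 in TFEB cells, passed the adjusted p of 0.05.

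In vector cells limma called none of the 8 hosts with 4-OHT, beside 0.0153% of tested genes (2 genes). At an unadjusted p under 0.05 there was 1 host, Snhg1, beside 6.27% of tested genes, and edgeR and DESeq2 called none, beside 0.0% and 0.366% of tested genes. The median log2 change of the hosts was 0.01, against 0.03 over all tested genes. 1 host had groups that did not overlap, Snhg1, higher in 4-OHT, beside 5.43% of tested genes with that order. For the difference in response between TFEB and vector cells limma called none of the 8, beside 15.8% of tested genes. At an unadjusted p under 0.05 there were 3 hosts (Snhg5, Snhg8 and Snhg12), beside 25.6% of tested genes. edgeR called none, beside 14.8%, and DESeq2 called 2, beside 20.2%. In limma with all libraries the responses of Gas5 and Snhg8 were therefore not shown to differ between the lines, while Snhg8 was among the 2 that DESeq2 called.

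The next comparisons set TFEB cells against vector cells in the same medium, and they share libraries with those above. In vehicle 1 host of 8, Snhg6, was lower in TFEB cells, by a log2 change of -0.46 ± 0.13 (limma adjusted p = 0.0375), beside 5.38% of tested genes called (2.49% lower and 2.89% higher). Without the second or the third vector library in vehicle, or the second or the third TFEB library in vehicle, the call was lost (limma adjusted p 0.193, 0.161, 0.134 and 0.0765). Snhg12 also did not overlap between the lines, with a log2 change of -0.46 ± 0.20 that did not pass (limma adjusted p = 0.199). Groups not overlapping with TFEB cells lower were thus seen in 2 hosts, beside 9.66% of tested genes. The median log2 change of the hosts was -0.11, against 0.05 over all genes.

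In 4-OHT, 3 of the 8 hosts were lower in TFEB cells than in vector cells and none was higher, beside 27.1% of tested genes called (13.5% lower and 13.6% higher). Snhg6 differed by -0.56 ± 0.13 on the log2 scale (limma adjusted p = 0.00165), Snhg5 by -0.45 ± 0.13 (limma adjusted p = 0.00711) and Snhg8 by -0.44 ± 0.13 (limma adjusted p = 0.00839). Groups did not overlap, with TFEB cells lower, in 5 hosts, these 3 with Gas5 and Snhg1, beside 18.9% of tested genes. Gas5 differed by -0.10 (95% interval -0.27 to 0.08) and Snhg1 by -0.21 ± 0.09 (limma adjusted p = 0.0778). Without the third TFEB library in 4-OHT, Snhg5 and Snhg8 missed the threshold (limma adjusted p 0.0542 and 0.0531) and 1 host, Snhg6, was called. Snhg8 also missed it without the second vector library in 4-OHT (limma adjusted p = 0.0562), and Snhg1 passed without the first (limma adjusted p = 0.048). The median log2 change was -0.22, against 0.05 over all genes. Zfas1, Snhg3 and Snhg12 differed by -0.23, -0.10 and 0.28, none past the threshold.

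Rows of the snoRNAs themselves gave little signal. 7 of the 9 rows averaged under 30 normalized counts, and Snora24, in Snhg8, was at 0 in all 12 libraries, where up to 3 reads, or 2.21 to 4.15 normalized counts, could have been missed. The short snoRNAs, and reads of unspliced host introns that cover them, cannot be told apart in these rows. Of the 5 rows tested limma called none in the 5 comparisons, and with 4-OHT in TFEB cells 1 had an unadjusted p under 0.05, Snord22.

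Snord22 had 147, 108 and 106 normalized counts in TFEB cells in 4-OHT, against 146.5, 236 and 193.5 in TFEB cells in vehicle. In vector cells it had 163, 157 and 155 in 4-OHT, against 228, 292 and 151 in vehicle. The lowest vehicle library in each line lay at or below the highest 4-OHT library, so groups overlapped in both lines. The log2 change in TFEB cells was -0.66 ± 0.28 (limma adjusted p = 0.0782), while edgeR and DESeq2 called it lower (adjusted p 0.0461 and 0.0308). Its host Snhg1 had a log2 change of 0.13 in the same comparison, so the means of host and snoRNA row lay on opposite sides of 0, a difference that was not tested. The same was seen in vector cells, with -0.45 ± 0.28 for Snord22 (limma adjusted p = 0.879) and 0.19 for Snhg1. Between the lines the Snord22 responses differed by -0.21, which did not pass (limma adjusted p = 0.828).

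Snora61, in Snhg12, had 51.6, 76.2 and 56.3 normalized counts in TFEB cells in 4-OHT, against 21.4, 61.9 and 31.8 in TFEB cells in vehicle. In vector cells it had 65.5, 39.1 and 104 in 4-OHT, against 75.2, 98.4 and 50.5 in vehicle. Its groups overlapped, and its log2 change of 0.78 ± 0.49 in TFEB cells (limma adjusted p = 0.279) had the sign of its host's. Snord12 in Zfas1 averaged 14.4 ± 14.1 in TFEB cells in 4-OHT and 21.4 ± 19.4 in TFEB cells in vehicle, and Snord47 in Gas5 9.58 ± 11.2 and 7.67 ± 7.72, too few and too variable to compare.

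**Figure D3:**
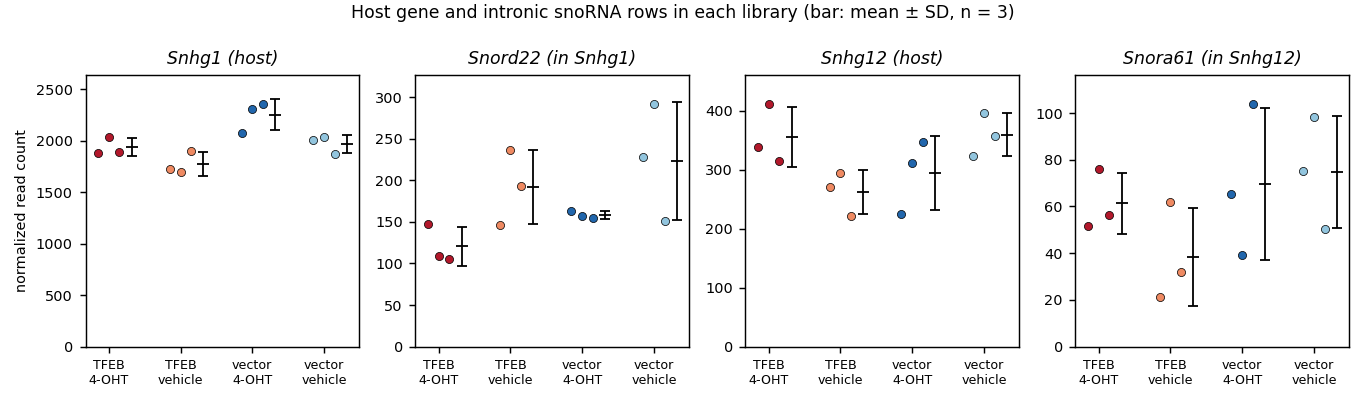
Normalized read count (vertical axes, each from 0) of the hosts Snhg1 and Snhg12 and of the snoRNA rows Snord22 and Snora61 that lie in their introns, in the 12 libraries by group. Points are libraries, and the black bar is the mean with 1 SD (n = 3). Snord22 averaged 120.5 in TFEB cells in 4-OHT and 192 in TFEB cells in vehicle, while Snhg1 averaged 1937 and 1775 in those groups. In vector cells Snord22 averaged 158.2 in 4-OHT and 223.5 in vehicle, while Snhg1 averaged 2250 and 1970.

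Several hosts share bases with a neighbour, and the sources used here do not say whether reads were counted by strand, so reads in a shared stretch may belong to either gene. Zfas1 overlaps Znfx1, an RNA helicase gene, by 82 bases. Znfx1 rose to 795 ± 53.2 normalized counts in TFEB cells in 4-OHT, against 386 ± 30.2 in TFEB cells in vehicle (log2 change 1.04 ± 0.15, limma adjusted p = 1.19e-06), the opposite sign to Zfas1. Vector cells had 400 ± 42.8 normalized counts of Znfx1 in 4-OHT and 398 ± 22.8 in vehicle. Mcmdc2 shares 1582 bases with Snhg6 and had at most 6.79 normalized counts on average in a group. Slc3a2, a subunit of amino acid transporters whose start lies 117 bases from Snhg1, shares no base with it. It fell by 0.35 ± 0.10 on the log2 scale in TFEB cells (limma adjusted p = 0.00874), while Snhg1 had 0.13.

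Other genes of the pathway were described from lists. A list of other noncoding snoRNA hosts had 15 entries, of which 14 were matched and 12 tested. Among these 12, limma, edgeR and DESeq2 called none with 4-OHT in TFEB cells, and none had an unadjusted p under 0.05. Their median log2 change was 0.22 and 1 of 12 was below 0, while 5 of the 8 hosts above were below 0. Of the 13111 tested genes 6190 were below 0. The smallest adjusted p was that of Snhg7, with 360 ± 15.1 normalized counts in TFEB cells in 4-OHT and 275 ± 63.9 in TFEB cells in vehicle (log2 change 0.42 ± 0.21, limma adjusted p = 0.15).

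Protein-coding genes that carry snoRNAs in their introns are for the most part ribosomal protein or translation genes with TOP starts. With 4-OHT in TFEB cells 19 of 35 fell and 1 rose, beside 13.9% of tested genes called lower and 13.7% higher, with a median log2 change of -0.26. Among the largest changes were falls of Rpl5 (-0.54 ± 0.10, limma adjusted p = 7.75e-05), Rpl17 (-0.53 ± 0.10, limma adjusted p = 0.000152) and the elongation factor gene Eef2 (-0.45 ± 0.12, limma adjusted p = 0.00333). Rpl5, a protein of the large ribosomal subunit, had 17520 ± 541 normalized counts in TFEB cells in 4-OHT and 25530 ± 3054 in TFEB cells in vehicle. In vector cells limma, edgeR and DESeq2 called none of the 35. In limma 8 had an unadjusted p under 0.05, beside 6.27% of tested genes. Log2 changes were below 0 in 26 of the 35, beside 5867 of the 13111 tested genes, and the median was -0.07. For the difference between the 2 responses limma called 2 below 0 and 1 above 0, beside 15.8% of tested genes. edgeR called 3 and DESeq2 5, beside 14.8% and 20.2%. Rpl5 passed that test in limma, while Rpl17 and Eef2 did not (limma adjusted p 0.0724 and 0.507).

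Of 19 translation factor and related genes with TOP mRNAs, 11 fell and none rose with 4-OHT in TFEB cells, beside the same 13.9% and 13.7% of tested genes. All 19 had log2 changes below 0, and the median was -0.29. The list shares 4 genes, Eef2 among them, with that of the protein-coding hosts, so the lists are not independent. The largest falls were Eif3e, a subunit of initiation factor eIF3 (-0.62 ± 0.10, limma adjusted p = 9.85e-06), Npm1, the nucleolar protein nucleophosmin (-0.59 ± 0.10, limma adjusted p = 1.72e-05), and Eef1g, an elongation factor subunit (-0.46 ± 0.08, limma adjusted p = 4.16e-05). In vector cells limma, edgeR and DESeq2 called none of the 19. In limma 5 had an unadjusted p under 0.05, beside 6.27% of tested genes. Log2 changes were below 0 in 16 of the 19, beside 5867 of the 13111 tested genes, and the median was -0.09. For the difference between the 2 responses limma called 3, all below 0, beside 15.8% of tested genes. edgeR called 4 and DESeq2 5, beside 14.8% and 20.2%. Npm1 and Eef1g passed that test in limma, while Eif3e did not (limma adjusted p = 0.0751).

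Of 15 genes that control TOP translation, 3 rose and 5 fell with 4-OHT in TFEB cells, beside 13.7% of tested genes called higher and 13.9% lower. The mTORC1 kinase gene Mtor rose to 25720 ± 637 normalized counts in TFEB cells in 4-OHT, against 6501 ± 256 in TFEB cells in vehicle (log2 change 1.98). Vector cells had 12950 ± 1139 in 4-OHT and 12440 ± 520 in vehicle. Mtor in TFEB cells was thus below vector cells in vehicle (log2 change -0.94, limma adjusted p = 9.92e-10). In 4-OHT it was above them (0.99, limma adjusted p = 1.54e-11). Rps6kb1, a kinase downstream of mTORC1, rose by 0.53 ± 0.10. Eif4ebp1, a repressor of cap-dependent translation, fell by 1.13 ± 0.12, and Rptor, the mTORC1 subunit that holds its substrates, fell by 0.55 ± 0.10. For Rptor the difference between the lines did not pass (limma adjusted p = 0.0589). These are RNA levels and say nothing of kinase activity.

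Of 20 nonsense-mediated decay factors, 4 rose and 1 fell with 4-OHT in TFEB cells, a share near the 27.5% of tested genes called, with a median log2 change of 0.06. edgeR called 1 higher and 1 lower. Smg5, which helps recycle the decay factor UPF1, rose by 0.50 ± 0.10 (limma adjusted p = 0.000144), and the exon junction adaptors Upf3a and Upf3b rose by 0.41 ± 0.15 and 0.34 ± 0.11. Upf3b had a log2 change of 0.36 ± 0.11 in vector cells (limma adjusted p = 0.386), and the difference between the lines was -0.02. For Upf3a that difference, 0.41, did not pass (limma adjusted p = 0.224). Smg1, the kinase of UPF1, fell by 0.28 ± 0.08 (limma adjusted p = 0.00972). In vehicle Smg1 was higher in TFEB than in vector cells (0.27 ± 0.08, limma adjusted p = 0.0481). In 4-OHT the lines differed by 0.05 (limma adjusted p = 0.727), and the difference of the responses, -0.22, did not pass (limma adjusted p = 0.24). Of 5 tested mRNAs known to be sensitive to this decay, 4 had log2 changes below 0, and the median was -0.16. Of the 5, limma called 1 higher and 2 lower, beside 13.7% and 13.9% of tested genes. Gadd45b rose by 1.40 ± 0.31, whereas Tbl2 fell by 1.09 ± 0.15 and Atf4, a stress-response transcription factor, fell by 0.64 ± 0.09. The difference between the lines passed for Tbl2 and Atf4, but not for Gadd45b (1.05 ± 0.44, limma adjusted p = 0.11). Of 15 snoRNP proteins and assembly factors, 3 fell and none rose, beside 13.9% of tested genes called lower and 13.7% higher: Nufip1, an assembly factor (-0.55 ± 0.18, limma adjusted p = 0.0217), Fbl, the box C/D methyltransferase fibrillarin (-0.27 ± 0.09, limma adjusted p = 0.0281), and Ruvbl2, an ATPase of the assembly complex (-0.22 ± 0.08, limma adjusted p = 0.0325). The difference between the lines passed for Fbl, but not for Nufip1 and Ruvbl2 (limma adjusted p 0.0655 and 0.159). The median log2 change of the snoRNP list was 0.06.

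**Figure D4:**
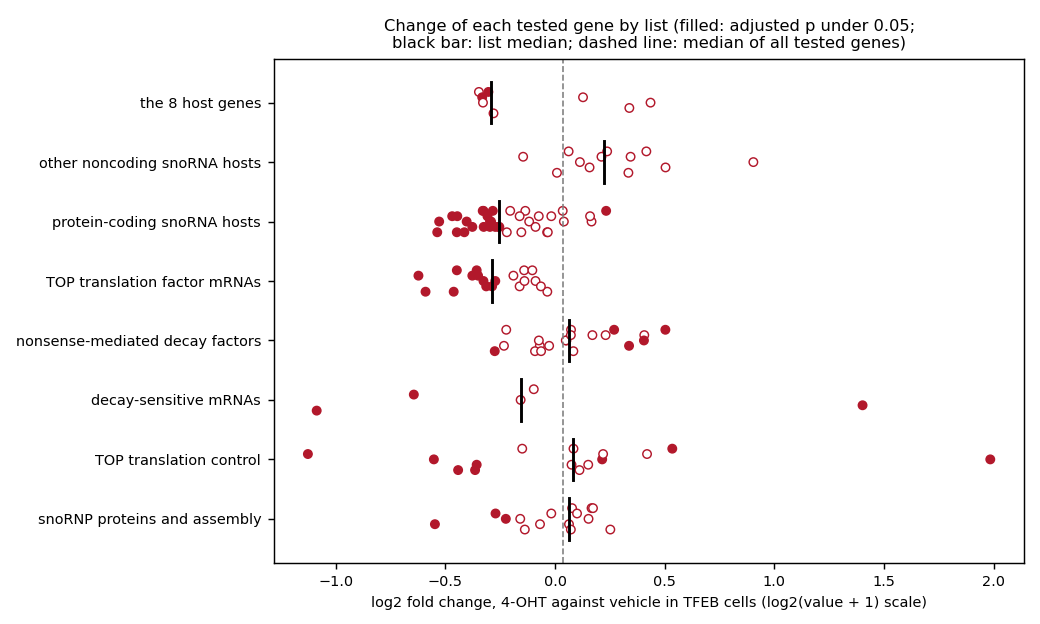
Log2 fold change of 4-OHT against vehicle in TFEB cells (horizontal axis) for each tested gene, in rows by list. Filled circles passed an adjusted p of 0.05 in limma, the black bar is the list median and the dashed line the median of all tested genes, 0.04; the bars of the 8 hosts, the protein-coding hosts and the TOP translation factors lie at -0.29, -0.26 and -0.29, and that of the other noncoding hosts at 0.22.

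The 8 hosts did not move as 1 block across libraries. Over the 12 libraries, Pearson's r between pairs of hosts, on log2 values, ran from -0.32 to 0.70, and 21 of 28 pairs were above 0. The highest was that of Snhg5 and Snhg8. With the mean of the 8 scaled profiles, Snhg8, Snhg5 and Snhg6 had r of 0.82, 0.78 and 0.76, and Snhg12 had the lowest, 0.16. These values describe 12 libraries that share group structure and scaling, and each host is itself part of the mean. Among genes outside the 8 with a mean of at least 100 normalized counts, the profiles most like that mean were those of Lamc1 (r = 0.88), Morc3 (0.88), Cct5 (0.88), Ptcd3 (0.87) and Gm16039 (0.85). Cct5, a subunit of the TRiC chaperonin, averaged 4815 ± 287 normalized counts in TFEB cells in 4-OHT and 5561 ± 726 in TFEB cells in vehicle, against 5899 ± 354 in vector cells in 4-OHT and 6200 ± 424 in vector cells in vehicle. Lamc1, a laminin subunit, was separated mainly by line, with 75.8 ± 35.4 normalized counts in TFEB cells in 4-OHT and 96.6 ± 40.9 in TFEB cells in vehicle, against 313 ± 90.9 in vector cells in 4-OHT and 322 ± 45.8 in vector cells in vehicle.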

How the data were processed

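Per the labels' protocols, total RNA of 12 samples was turned into libraries with a NuGEN Ovation mouse kit. The deposited table holds a signal for every gene, namely read counts that the authors divided by 1 size factor per library. STAR 2.5.3, HTSeq 0.6.1, DESeq2 1.6.3 and build mm10 were used, per the submitters' processing notes. Not given in the sources used here: what each tool did, the annotation, the filters and whether strand was used. In every library 100% of values were whole multiples, within 0.001, of the value of 1 read, so whole reads were recovered. With edgeR 4.0.16 they gave 3400, 0, 1940, 646 and 3353 called genes in the 5 comparisons, in the order of the report, and DESeq2 1.42.0 was also run.

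The main test was limma 3.58.1 in R 4.3.3 on log2(value + 1), so fold changes of low genes are understated. It was fitted to 13111 genes (at least 10 normalized counts in at least 3 libraries) and all 12 libraries with 1 mean per group and a variance trend, with Benjamini-Hochberg adjustment over all tested genes and a threshold of 0.05. Comparisons share libraries, so overlaps between them are not given. The script was tested on simulated data. Alternatives were other scalings, pseudocounts, filters, variance models, a replicate block and leaving out each library.

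The 13 gene lists, of which the 8 hosts are 1 (163 entries in all, 162 matched, 11 under an older symbol), were chosen with earlier results of these data known. Named genes were the hosts, Tfeb, from each list up to 4 genes with the largest change past the threshold with 4-OHT in TFEB cells or else the smallest adjusted p, 5 genes with profiles like the hosts', and snoRNA genes inside hosts. Neighbouring genes were named for their overlap or closeness to a host. A few genes that these rules would name are not reported here. The 95% intervals are limma's and cover the spread among libraries. Limits at 0 cover counting error only, since PCR copies are not independent molecules. For T cell and myeloid genes, whose levels were near 0, summed levels are given.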

Additional observations from a re-analysis of the deposited data

Results flagged for a closer look

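In limma with all libraries no host gene had a 4-OHT response that differed between TFEB and vector cells past the threshold, while DESeq2 called that difference for Snhg8 and Snhg12 (adjusted p 0.0268 and 0.0281). Among Tfeb and the genes named above from the other lists, 15 had a response to 4-OHT that differed between TFEB and vector cells. This was by the test of the difference itself (limma, adjusted p under 0.05). The neighbouring genes, such as Znfx1, and the genes with profiles like the hosts' were not part of this count. All values here are that difference on the log2 scale, TFEB response minus vector response. Among TOP genes and protein-coding hosts it was -0.48 for Rpl5, -0.56 for Npm1 and -0.37 for Eef1g. Among decay factors and decay-sensitive mRNAs it was 0.46 for Smg5, -1.30 for Tbl2 and -0.51 for Atf4. Among genes that control TOP translation it was 1.93 for Mtor, -0.97 for Eif4ebp1 and 0.43 for Rps6kb1, and for the snoRNP methyltransferase Fbl it was -0.47. For the B cell genes it was -3.11 for Rag1, -1.63 for Vpreb1, -1.50 for Ebf1 and -1.73 for Igll1. Tfeb itself, a row that can hold reads of gene and transgene, had -1.19. With 3 libraries per group no single library was tested as standing apart.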

How the results depend on the processing

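Counts are of the 8 hosts called. With 4-OHT in TFEB cells the 2 calls became 4 with DESeq2, with upper-quartile scaling and with array weights (which added Snhg3, higher), 1 without a filter on low values, 1 with only the groups compared, 0 without a variance trend, and 1 to 3 leaving out each library. Snhg8 was lost without any 1 TFEB library in 4-OHT, without TFEB vehicle replicate 2 or 3, or without vector vehicle replicate 1 or 2. Gas5 was lost without TFEB vehicle replicate 2 and without a variance trend. For the difference in response the 0 calls became 2 with DESeq2, 1 with upper-quartile scaling, 1 with array weights, 1 without the 3 libraries with most genes, and 0 to 3 leaving out each library, with 3 (Gas5, Snhg5 and Snhg8) without TFEB vehicle replicate 1, and 1 (Snhg12) without TFEB vehicle replicate 2 or vector 4-OHT replicate 3. TFEB against vector in vehicle gave 0 without a variance trend, 2 with array weights and 0 to 1 leaving out each library, against 1. In 4-OHT it gave 1 to 4, against 3. In vector cells no alternative called a host. Of 952 values of single hosts under alternatives, 898 stayed on their side of the threshold and 15 had the other sign, none of them called. edgeR called 2 of 20 decay factors, against 5. The causes were not tested.

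Replicate numbers do not pair the samples: same-numbered libraries had correlations of -0.124 to 0.096 in their deviations from group means, with 0 of 18 above 0.1. With the replicate block the 5 counts were 1, 0, 0, 1 and 3.

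3 libraries per group limit the precision: the 95% intervals of single responses are often wider than the responses, and depth was not limiting for the hosts, though it was for most snoRNA rows.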
